A study of Homo sapiens with 18 samples.

Results

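H3K4me1 peaks were related to gene expression in ZR751shLucif cells, the control cell line of the study. Of the 18 samples in the series, 4 were used for this: 2 RNA-seq libraries, which give an FPKM value (fragments counted per length of transcript and per sequenced fragments) for each gene, and 2 H3K4me1 ChIP-seq peak lists, 1 per replicate. ZR751 is an established luminal, estrogen receptor positive (ER+) breast cancer cell line. ZR751shLucif cells were stably transduced with a lentivirus that carries a short hairpin RNA against luciferase and were sorted for GFP, while the comparison line, ZR751shMLL3, carries a hairpin against MLL3. All cells carry a hairpin and were grown without added treatment. The study does not state whether replicates of the 4 control libraries were transduced separately. The spread between replicates may therefore be that of 1 transduced population. All 22017 genes with a position on hg19 were placed in 5 bins by their mean FPKM: 5110 genes listed at 0 in both libraries, and 4 quartiles of the 16907 genes above 0, called Q1 (lowest) to Q4 (highest). The 50000 H3K4me1 peaks with the highest signal in each list were then counted at the start site of each gene, in its body and in its surroundings, each peak placed by its summit.

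Monomethylation of lysine 4 of histone H3 (H3K4me1) is laid down by methyltransferases of the MLL family, with MLL3 and MLL4 as the main enzymes at enhancers. The mark is found at enhancers, both active and primed, and on the shoulders of active promoters, where the nucleosomes closest to the start site carry the trimethylated form instead. In luminal breast cancer cells, enhancers bound by FOXA1, GATA3 and ERα typically carry H3K4me1.

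Luminal epithelial markers were expressed as the label of the cell line states. Of 10 such markers, 9 lay in Q4 and ESR1, which encodes ERα, lay in Q3 at 11.2 and 14.2 FPKM in replicates 1 and 2. The summed FPKM of the luminal markers was 14835 and 7857, against 4.13 and 1.86 for 6 basal markers, 18.0 and 13.2 for 6 fibroblast markers, 10.0 and 9.05 for 6 immune markers, and 0.131 and 0.259 for 3 endothelial markers. Most of the fibroblast sum came from COL1A1 and most of the immune sum from CD68. Q1 ended at 0.443 FPKM, Q2 at 5.38 and Q3 at 20.2. When each RNA-seq library was binned alone, 17685 genes (80.3%) fell in the same bin in both and 156 moved by more than 1 bin. Of the 50000 peaks of replicate 1, 25291 (50.6%) overlapped one of the 50000 of replicate 2 by at least 1 bp, and 25544 (51.1%) the other way round. The signal of each list has a scale of its own and served only to rank its peaks. The study states an approximate sequencing depth per library, but the number of reads behind a gene or a peak is not given by the values used here.

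In Q2 to Q4, H3K4me1 summits lay on both sides of the start site and were rare at the start site itself. Upstream of Q4 genes, summits were densest 1001 to 1250 bp from the start, at 4.40 and 3.62 summits per 100 genes and 250 bp in replicates 1 and 2. Downstream the highest values were 3.97 at 1250 to 1499 bp in replicate 1 and 3.95 at 1500 to 1749 bp in replicate 2. In the 500 bp centered on the start site, the 4227 genes of Q4 held 4 and 6 summits in all, or 0.0473 and 0.071 per 100 genes and 250 bp. Farther out, from 3 to 5 kb, the level in Q4 was 0.98 and 1.06. Q1 genes had no trough, with 0.461 and 0.331 at the start site against 0.331 and 0.339 from 3 to 5 kb. Genes listed at 0 had no shoulders. Their level from 3 to 5 kb was 0.32 and 0.318, and no step within 5 kb exceeded 0.489 in replicate 1 or 0.47 in replicate 2. At their start sites the level was lower here too, at 0.147 in each list, or 15 summits over 5110 genes.

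**Figure D1:**
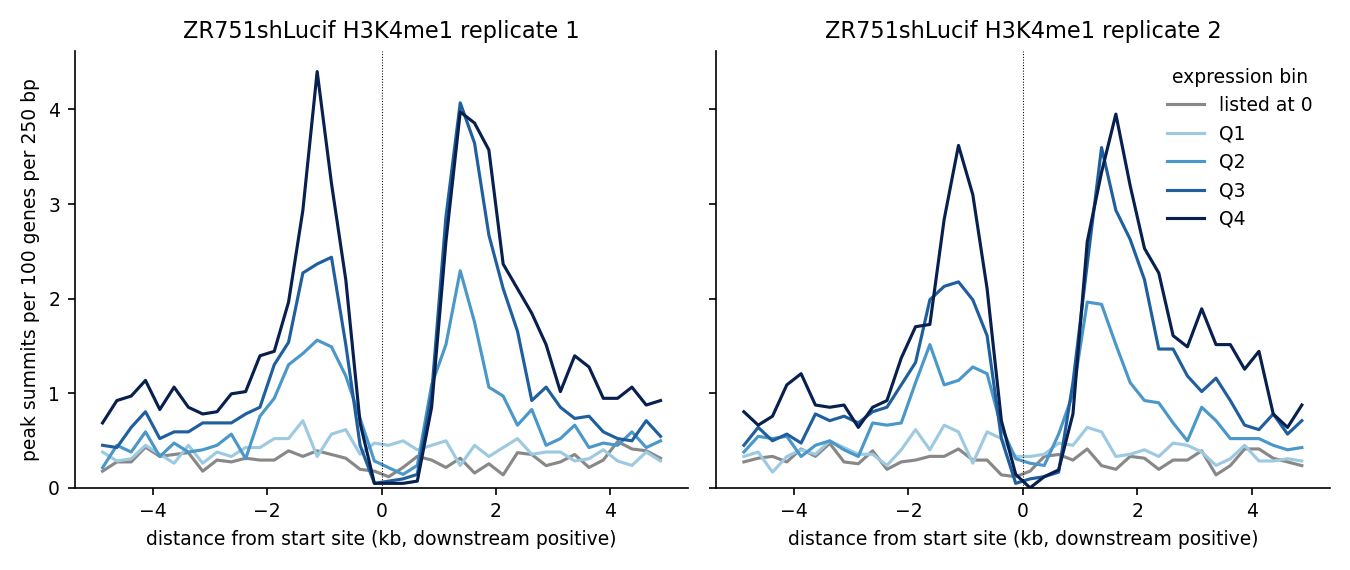
H3K4me1 peak summits per 100 genes in steps of 250 bp (vertical axis) against the distance from the start site in kb, downstream positive (horizontal axis), with 1 line per expression bin and 1 panel per replicate of ZR751shLucif. Q2 to Q4 show a maximum on each side of the start site and a trough at it, with maxima of 4.40 and 3.97 in Q4 of replicate 1, while genes listed at 0 stay at or below 0.489 throughout.

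The sequence at these places is shown for the 2 genes with the highest FPKM among the 57 protein-coding Q4 genes that had a summit 500 to 2500 bp away on both sides in both lists, a rule chosen after the counts were seen. ARF1, a small GTPase of vesicle transport, had 781 and 893 FPKM, and PHB2, a prohibitin of the mitochondrial inner membrane, had 874 and 404 FPKM. The 101 bases centered on the start site and on the closest summit of replicate 1 on each side are printed below in the direction of transcription, from GRCh37 (hg19), with each CpG in capitals. They show the contrast between a CpG-dense start site and its CpG-poor flanks. ARF1 lies on the plus strand, with the start site at chr1:228270359-228270459, the upstream summit at chr1:228268938-228269038 (1421 bp before the start) and the downstream summit at chr1:228272483-228272583 (2124 bp after it). PHB2 lies on the minus strand, with the start site at chr12:7079777-7079877, the upstream summit at chr12:7081402-7081502 (1625 bp before the start) and the downstream summit at chr12:7078062-7078162 (1715 bp after it).
ARF1 upstream summit: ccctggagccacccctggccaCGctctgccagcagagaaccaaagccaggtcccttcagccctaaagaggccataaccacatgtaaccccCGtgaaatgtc
ARF1 start site: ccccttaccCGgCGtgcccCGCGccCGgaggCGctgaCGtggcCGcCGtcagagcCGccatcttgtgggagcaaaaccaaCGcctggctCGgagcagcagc
ARF1 downstream summit: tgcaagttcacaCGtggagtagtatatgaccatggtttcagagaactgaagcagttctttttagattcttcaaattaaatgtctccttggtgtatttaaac
PHB2 upstream summit: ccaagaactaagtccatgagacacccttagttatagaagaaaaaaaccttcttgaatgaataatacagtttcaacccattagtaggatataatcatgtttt
PHB2 start site: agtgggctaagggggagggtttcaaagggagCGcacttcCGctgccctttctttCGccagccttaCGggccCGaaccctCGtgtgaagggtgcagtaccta
PHB2 downstream summit: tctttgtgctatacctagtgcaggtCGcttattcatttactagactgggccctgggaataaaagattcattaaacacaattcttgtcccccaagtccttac
The ARF1 start site held 12 CpG in these 101 bases and its summits 2 and 1. The PHB2 start site held 6 CpG, and its summits 0 and 1.

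The same contrast held over all such windows. In 300 bp centered on the start site, protein-coding genes of Q4 had a mean of 31.5 CpG, and those listed at 0 had 10.7. Around H3K4me1 summits that lay 500 to 2500 bp from a start site, the mean was 2.98 CpG in replicate 1 and 3.17 in replicate 2. The GC box letters GGGCGG, on either strand, occurred in 77.9% of Q4 start windows, in 27.8% of those listed at 0, and in 56.6% of all 22017 start windows. They occurred in 3.14% and 3.76% of the flanking summit windows. The forkhead letters TGTTTAC, on either strand, ran the other way, with 1.133% of Q4 start windows, 2.11% of all start windows, and 9.26% and 8.29% of all summit windows of the 2 lists. The GATA letters AGATAA, on either strand, occurred in 2.39% of Q4 start windows and in 6.29% of all start windows. In all summit windows they occurred in 26.9% and 26.4%. The flanking summit windows alone had 7.27% and 6.10% for the forkhead letters and 24.4% and 23.4% for the GATA letters. The letters of a full estrogen response element were rare everywhere, in 0.042% and 0.032% of all summit windows and 0.0318% of all start windows. These matches are descriptions of the letters in the windows. AT-rich letters are more frequent by base composition alone in the summit windows, which were 38.1% and 38.7% GC against 68.9% in Q4 start windows.

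Within 1 kb of the start site, the share of genes with an H3K4me1 summit rose with each expression bin. It was 1.59% and 1.53% of the genes listed at 0 (81 and 78 genes), 2.91% and 2.53% in Q1, 4.23% and 4.05% in Q2, 4.71% and 4.80% in Q3, and 5.89% and 5.87% in Q4 (249 and 248 genes). The 95% Wilson intervals, which cover counting error only, were 1.28% to 1.97% and 1.22% to 1.90% for genes listed at 0, and 5.22% to 6.64% and 5.20% to 6.62% for Q4. The difference between Q4 and genes listed at 0 was 4.32 ± 0.0248 percentage points (SD, n = 2 lists). The values of the 2 lists did not overlap between any bins, although the Wilson intervals of Q2 (3.67% to 4.88%) and Q3 (4.11% to 5.39%) in replicate 1 did. The exact two-sided sign-flip permutation test over the 2 lists gave p = 0.5, the smallest p that 2 lists allow, and the same holds for each difference between bins below. A summit within 1 kb in both lists was found for 308 of 22017 genes (1.4%), for 101 of those in Q4 and for 19 of those listed at 0.

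The window of 1 kb covers the trough and only the inner slope of the shoulders, so the value depends on the window. Within 500 bp of the start site the shares were 0.781% and 0.923% in Q4, 1.51% and 1.35% in Q1, and 0.587% and 0.724% in genes listed at 0, so that Q1 exceeded Q4 in both lists. The Wilson intervals of Q1 and Q4 lay at 1.19% to 1.93% and 0.556% to 1.09% in replicate 1, and overlapped in replicate 2. From 500 to 2500 bp, a window chosen after the profile was seen, the shares were 3.39% and 3.25% of genes listed at 0, 4.97% and 4.85% in Q1, 12.8% and 12.3% in Q2, 20.2% and 19.6% in Q3, and 23.4% and 22.9% in Q4. The step from Q1 to Q2 was thus the largest in fold, and Q4 exceeded genes listed at 0 by 6.91 and 7.06 times. Both sides of the start took part, with 12.8% and 12.2% of Q4 genes marked upstream, 14.4% and 13.8% downstream, and 3.86% and 3.12% on both sides. In Q3 the downstream side was marked more often, at 13.1% and 12.3% against 9.77% and 9.84% upstream. Both lists marked the flank of 1324 of 22017 genes (6.01%), of which 520 lay in Q4 and 62 were listed at 0.

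**Figure D2:**
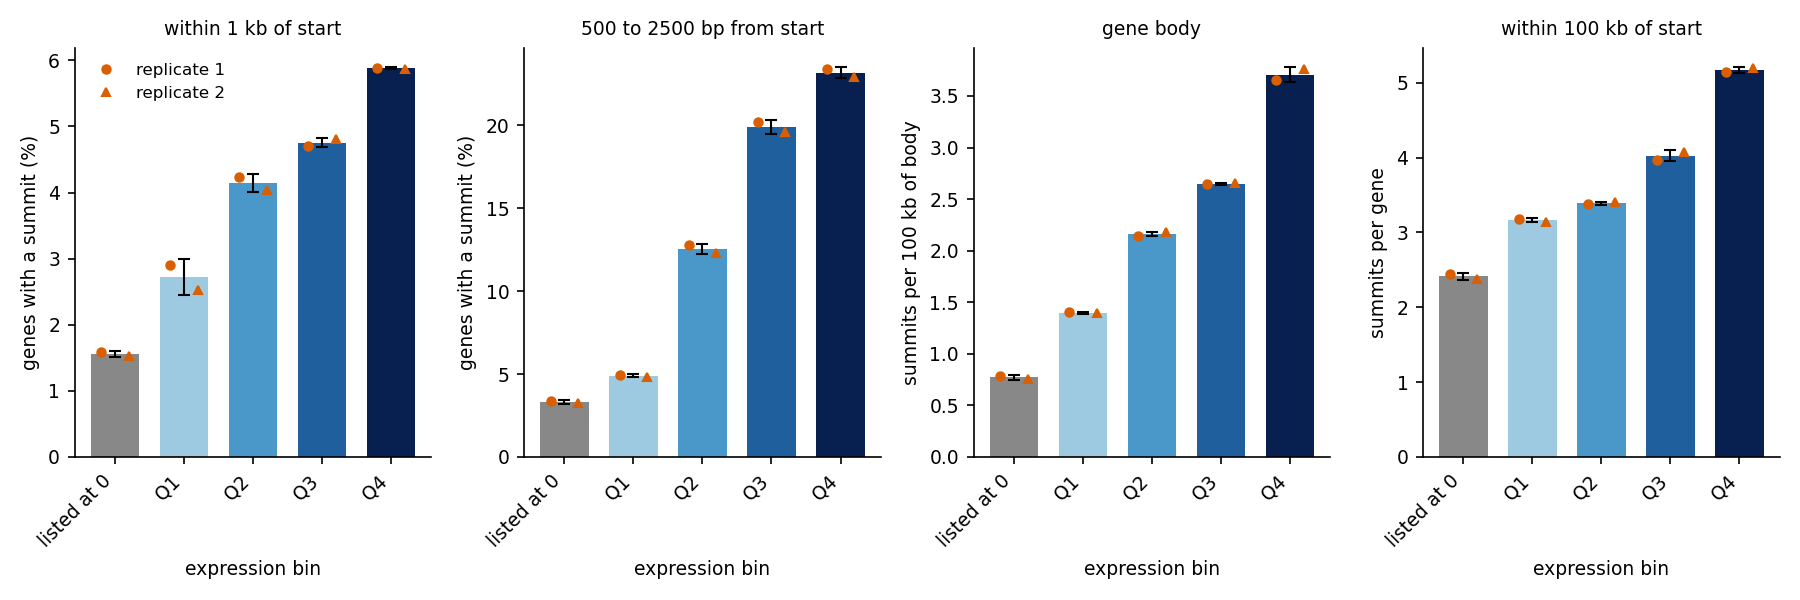
Bars give the mean over the 2 ZR751shLucif H3K4me1 lists by expression bin (horizontal axis), error bars the SD (n = 2) and points the 2 replicates. The panels show the percent of genes with a summit within 1 kb of the start site or 500 to 2500 bp from it, the summits per 100 kb of gene body, and the mean number of summits per gene within 100 kb of the start site, and all 4 measures are lowest in genes listed at 0 and highest in Q4.

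Protein-coding genes showed a steeper relation than all genes. With a summit 500 to 2500 bp from the start, the shares were 1.91% and 1.70% of the 2877 protein-coding genes listed at 0 and 23.5% and 22.9% of the 4149 in Q4. The genes listed at 0 also included 2233 that code for no protein, among them 1016 microRNA genes and 238 small nucleolar RNA genes, which often sit inside other genes, and 2.60% of them had a summit within 1 kb in each list, against 0.799% and 0.695% of the protein-coding ones.

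CpG-rich and CpG-poor start sites were compared within each bin, since 89.9% of the protein-coding Q4 genes and 20.3% of those listed at 0 had a CpG-rich start (at least 50% GC and an observed over expected CpG ratio of at least 0.6 in 1000 bp). Among genes with CpG-rich starts, flanking summits marked 2.40% and 1.20% of the 584 genes listed at 0, 2.23% and 3.00% of the 1434 in Q1, 13.5% and 12.3% in Q2, 20.7% and 20.1% in Q3, and 23.3% and 22.7% of the 3729 in Q4. Among genes with CpG-poor starts, the values were 1.79% and 1.83% of the 2293 listed at 0 and 25.2% of the 420 in Q4 in both lists. The relation of the flank to expression was therefore present within both kinds of start site. The start site itself differed between them. Within 500 bp, CpG-rich genes of Q4 had a summit in 0.51% and 0.429% of cases (19 and 16 genes), while CpG-poor genes of Q4 had one in 2.86% and 4.05% (12 and 17 genes). Among CpG-rich genes listed at 0, a summit within 500 bp was found for 0 of 584 genes in both lists, which allows a share of up to 0.514%.

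In gene bodies, the density of H3K4me1 summits rose with each bin. Per 100 kb of body, there were 0.787 and 0.756 summits in genes listed at 0, 1.41 and 1.39 in Q1, 2.15 and 2.18 in Q2, 2.64 and 2.66 in Q3, and 3.66 and 3.76 in Q4. The difference between Q4 and genes listed at 0 was 2.94 ± 0.0923 summits per 100 kb (SD, n = 2), and the values of the 2 lists did not overlap between any bins. The count per gene, without division by length, was highest in Q2, at 1.73 ± 0.0181 summits, against 1.28 ± 0.0243 in Q4. Q2 genes had a median length of 32749 bp and Q4 genes one of 17942 bp. When protein-coding genes were split into 3 equal groups by length, the density within each group also rose from genes listed at 0 to Q4. It went from 0.503 and 0.438 to 3.52 and 3.86 in the shortest group, from 0.72 and 0.757 to 3.04 and 3.28 in the middle group, and from 0.562 and 0.501 to 3.95 and 3.97 in the longest group.

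Within 100 kb of the start site, genes listed at 0 had a mean of 2.44 and 2.38 summits, and the means rose to 3.18 and 3.15 in Q1, 3.37 and 3.41 in Q2, 3.97 and 4.08 in Q3, and 5.14 and 5.20 in Q4. The difference between Q4 and genes listed at 0 was 2.76 ± 0.0844 summits per gene (SD, n = 2). Neighbouring genes share summits in such windows, so genes are not independent of each other here. In fold, the excess was highest close to the gene, while in number most of it lay farther out: with 10 kb around the start left out, the difference was still 2.10 summits per gene. The density in Q4 over that in genes listed at 0 was 3.59 and 3.58 times from 0 to 1 kb, 9.14 and 8.54 times from 1 to 2.5 kb, 3.31 and 3.42 times from 2.5 to 5 kb, 2.24 and 2.34 times from 10 to 25 kb, 1.79 and 1.87 times from 50 to 100 kb, and still 1.40 and 1.36 times from 250 to 500 kb. No summit within 100 kb in either list was found for 1116 of the 2877 protein-coding genes listed at 0 (38.8%) and for 594 of the 4149 in Q4 (14.3%). Those 594 genes had a median of 44.9 FPKM, against 45.2 for all protein-coding genes of Q4.

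Read the other way round, expression rose with the number of summits nearby. Protein-coding genes without a summit within 100 kb had a median of 1.06 FPKM by the list of replicate 1 (6076 genes) and 0.761 by that of replicate 2 (6020 genes), and 23.1% and 24.3% of them were listed at 0. Genes with 3 to 5 summits had medians of 5.96 and 5.27 FPKM. Genes with 21 or more had medians of 16.2 (442 genes) and 19.2 FPKM (422 genes), and 4.30% and 3.55% of them were listed at 0. The interquartile ranges were wide, from 2.10 to 50.4 FPKM in that last class of replicate 1, and Spearman's rho between FPKM and the count within 100 kb over the 18327 protein-coding genes was 0.205 and 0.229. The count itself correlated between the 2 lists at a rho of 0.762. These correlations are across genes of the same libraries, which are not independent replicates, and are given as a description.

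The flank of the start site and the surroundings of the gene differed in how far they followed expression. The 15450 protein-coding genes above 0 were split into 20 classes of equal size by FPKM. The share with a flanking summit rose from 1.81% and 2.33% in the lowest class to 19.4% and 18.5% in the class with a median of 5.70 FPKM. In the 10 classes above that, up to a median of 221 FPKM, it stayed between 18.7% and 25.1%. Body density and the count within 100 kb rose further over those classes, with dips between neighbouring classes. Body density was 2.25 and 2.15 summits per 100 kb at a median of 5.70 FPKM and 5.26 in both lists at 221 FPKM, while the count within 100 kb was 3.58 and 3.5 at the former and 6.18 and 6.27 at the latter. Genes of the highest class were also short, with a median length of 9040 bp. Bodies include the downstream shoulder, which takes up more of a short body. Without the first 2 kb of each body, Q4 exceeded genes listed at 0 by 2.72 summits per 100 kb, against 2.94 with it. The 20 classes were not counted in this way.

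**Figure D3:**
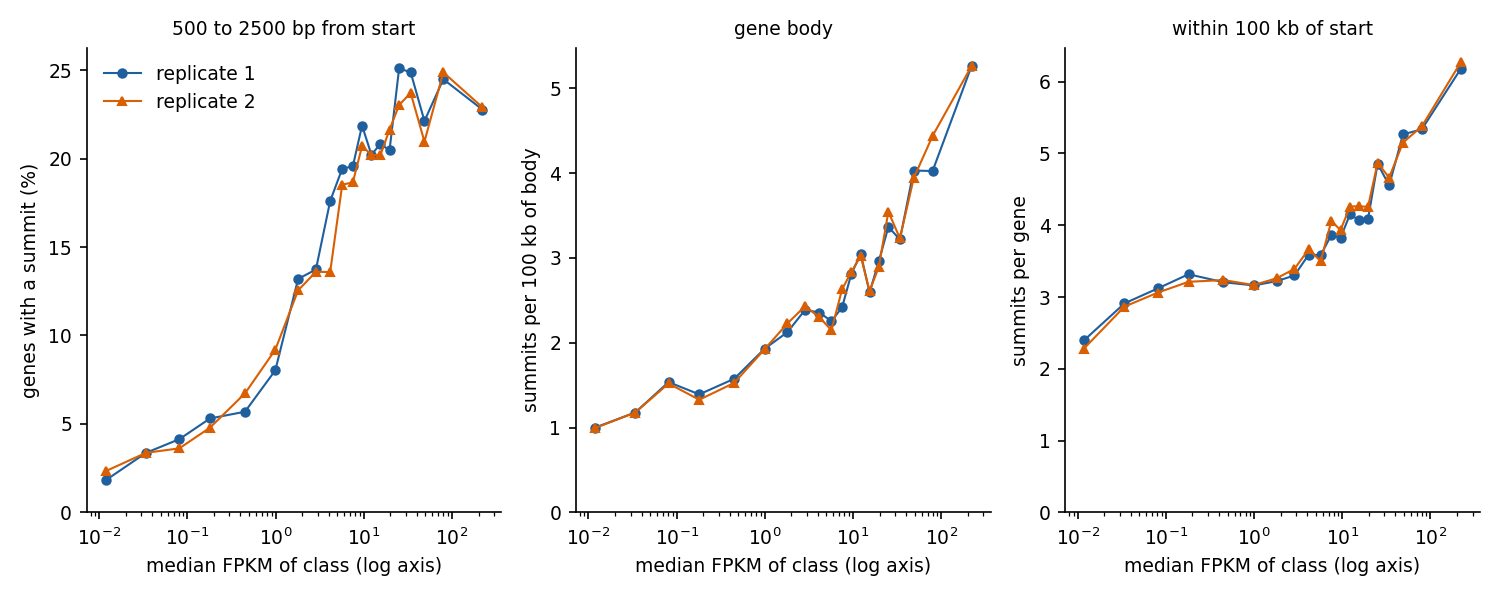
Protein-coding genes above 0 in 20 classes of equal size, plotted at their median FPKM (horizontal log axis), with the 2 ZR751shLucif replicates as separate lines. The share of genes with a summit 500 to 2500 bp from the start lies between 18.7% and 25.1% in the 10 highest classes, while summits per 100 kb of body and summits per gene within 100 kb rise to 5.26 (both replicates) and to 6.18 and 6.27 in the highest class.

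The strongest peaks lay near more highly expressed genes. The protein-coding gene closest to each of the top 1000 summits was in Q4 in 38.7% and 38.5% of cases and listed at 0 in 5.9% and 4.4%. For summits ranked 40001 to 50000 the values were 22.0% and 22.95% in Q4 and 9.06% and 8.37% listed at 0. Of all 18327 protein-coding genes, 4149 lay in Q4 and 2877 were listed at 0. The Q4 share for these last summits was thus close to that over all protein-coding genes. The median FPKM of the closest gene fell from 13.2 and 10.96 for the top 1000 to 4.57 and 4.79 for the last 10000 of the 50000. The median distance to that gene was 52437 and 50459 bp for the top 1000, and 9.1% and 5.9% of them lay within 2500 bp of a start.

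The relation held within most chromosomes, which differed widely in peak number. The mean count within 100 kb of a Q4 gene ranged from 0.943 on chromosome 19 to 11.8 on chromosome 1 in replicate 1, and from 1.10 on chromosome 21 to 11.1 on chromosome 1 in replicate 2, with chromosome 12 next at 10.1 and 9.11. Copy number was not measured here, and its part in these counts was not tested. Q4 exceeded genes listed at 0 in this count on 23 of 23 chromosomes in replicate 1 and on 22 in replicate 2, the exception being chromosome 13, at 2.49 against 2.83. The flank share and the body density were likewise higher in Q4 on 23 chromosomes in replicate 1 and on 22 in replicate 2, where chromosome 21 went the other way. There the flank was marked in 0 of 30 Q4 genes, too few to be told apart from the 2.68% of genes listed at 0, and body density was 0.472 against 0.642 summits per 100 kb of body. Averaged within chromosomes, the difference was 2.63 summits per gene, against 2.76 over all genes.

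Gene lists followed the bins in part. Luminal transcription factors, which specify and maintain the mammary luminal lineage, had the highest count within 100 kb of all lists, with a mean of 11.5 and 11.2 summits over 26 genes, against 3.58 ± 0.00935 over all genes. Of the 26, 14 lay in Q4 and none was listed at 0. XBP1, a transcription factor of the secretory pathway, had 1302 and 1507 FPKM and 16 and 12 summits within 100 kb. SPDEF, an ETS factor of luminal epithelium, had 463 and 253 FPKM and 9 and 11 summits, one of them 550 and 336 bp upstream of the start. GRHL2, which keeps epithelial junction genes on, had 23.6 and 21.1 FPKM with 21 and 36 summits in its body of 177 kb, and TRPS1, a GATA-type repressor, had 44.1 and 67.5 FPKM with 34 and 45 summits in its body of 260 kb. Among the marker genes, singled out here after their values were seen, FOXA1, a pioneer factor, had 173 and 102 FPKM and 31 and 22 summits within 100 kb, and GATA3, a factor of luminal identity, had 212 and 140 FPKM with 2 and 1. FOXA1 and GATA3 were thus at similar FPKM with different numbers of peaks.

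Keratins and epithelial junction genes, of which 18 of 26 lay in Q4, had means of 7.31 and 6.88 summits within 100 kb. CDH1, which encodes E-cadherin, had 247 and 267 FPKM, 13 and 14 summits in its body and 19 and 24 within 100 kb. KRT19 and KRT8, keratins of simple epithelia, had 4809 and 1591 and 4573 and 1652 FPKM. They had 10 and 3 and 9 and 3 summits within 100 kb, and no summit in their bodies or within 2500 bp of their starts. Replicate 1 was higher than replicate 2 for both genes in both assays, although no label ties the replicate numbers of the assays. The FPKM summed over all genes was 697286 and 482547 in replicates 1 and 2. These differences between replicates were not tested. Classical estrogen-induced genes had means of 6.00 and 6.08 summits over 25 genes, of which 13 were in Q4. CTSD, the lysosomal protease cathepsin D, had 2168 and 2419 FPKM and 7 and 3 summits within 100 kb, SLC39A6, a zinc transporter, had 1813 and 1080 FPKM and 7 and 10 summits, and PDZK1, a scaffold protein, had 13.1 and 5.10 FPKM and 11 and 18 summits. AREG, the growth factor amphiregulin, had 0.398 and 2.98 FPKM with 17 and 19 summits, a low level beside many peaks. TFF1, a secreted trefoil peptide from the marker list, had 998 and 1406 FPKM with 0 and 2 summits within 100 kb.

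Ribosomal protein genes and genes of the proteasome and spliceosome core were expressed at high levels, with fewer peaks than the luminal factors. The 78 cytosolic ribosomal protein genes found, of 80 listed, had a median of 1430 FPKM, and 5.13% and 10.3% of them had a flanking summit, beside 12.6% and 12.2% of all genes and 23.4% and 22.9% of Q4 genes. Their mean count within 100 kb was 2.05 and 2.50, below the mean over all genes. RPS2 had 9202 and 4909 FPKM with 0 and 4 summits within 100 kb, and RPS27 had 6020 and 4156 FPKM with 6 and 6. The 3 Q4 genes with the highest FPKM and no summit within 100 kb in either list were ribosomal too: RPS16 at 3087 and 1777 FPKM, RPL28 at 3723 and 719 FPKM, and RPL8 at 2623 and 1717 FPKM. RPS16 and RPL28 lie on chromosome 19, where peaks were few. Ribosomal protein genes have many processed copies in the genome, so their FPKM is uncertain. Genes of the proteasome and spliceosome core, all 40 in Q4, had flanking summits in 25% and 17.5% of cases, beside 23.4% and 22.9% of all Q4 genes, and means of 4.70 and 4.03 summits within 100 kb. PSMB4, a proteasome subunit, had 612 and 409 FPKM with summits 1374 bp before and 1449 bp after its start in replicate 1 and none within 2500 bp in replicate 2, and SNRPE, a spliceosome subunit, had a summit 1313 and 1125 bp after its start in the 2 lists. The 21 genes of the H3K4 methylation machinery found, of 23 listed, were all above 0, with 7 in Q4, and had means of 3.86 and 3.43 summits within 100 kb and a median of 1 in each list. The highest counts in the list were those of KDM5B and ASH2L. KDM5B, an H3K4 demethylase on the peak-rich chromosome 1, had 48.6 and 46.9 FPKM and 20 and 21 summits within 100 kb. It had a flanking summit 2176 and 2120 bp after its start. ASH2L, a core subunit of the methyltransferases, had 63.7 and 63.3 FPKM and 15 and 17 summits within 100 kb. Histone genes of the replication-dependent clusters, a list added after the data were seen because the first one used older symbols and matched 0 genes, had 31 of 62 members in Q4, means of 4.06 and 5.39 summits within 100 kb and no summit in their short bodies.

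**Figure D4:**
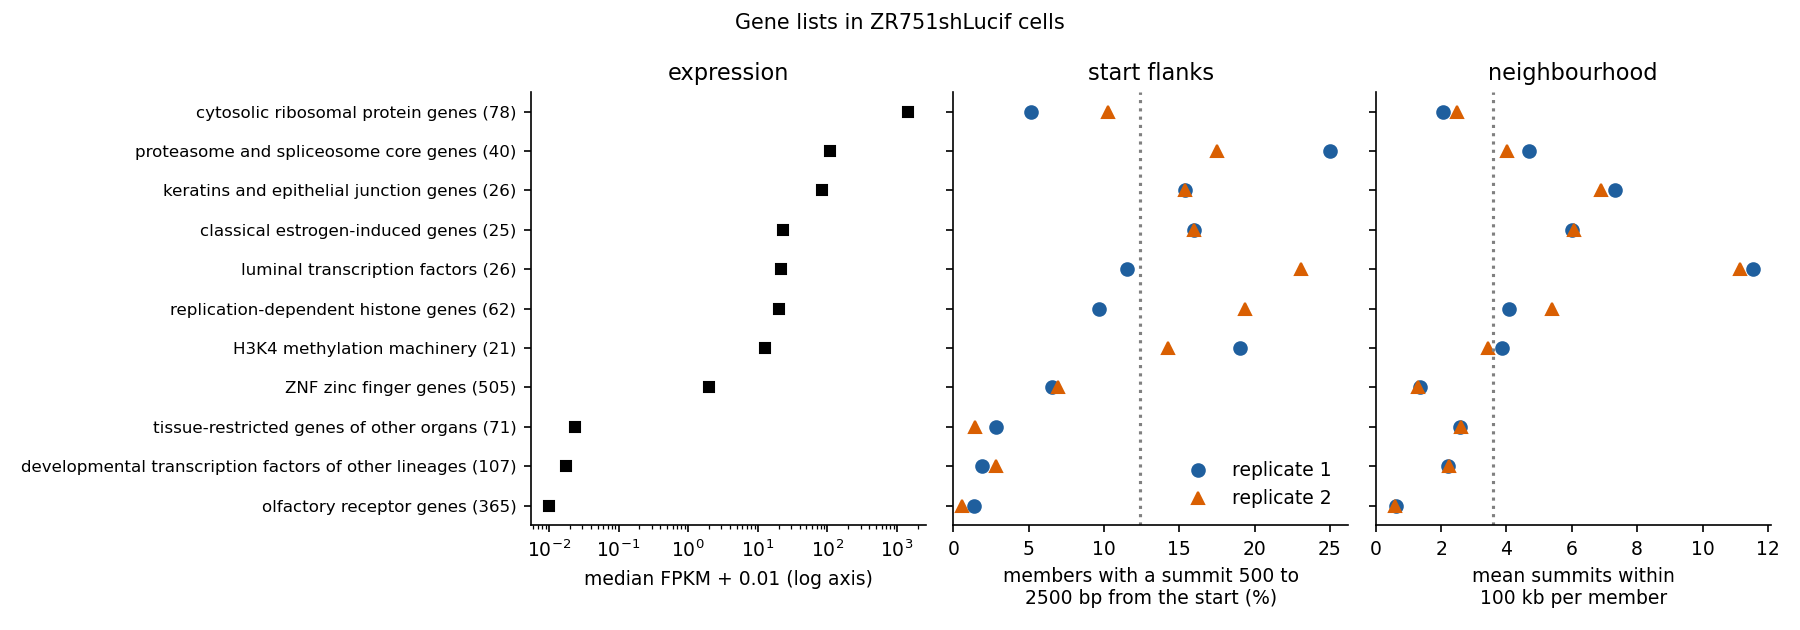
Gene lists, with the number of genes found in parentheses, ordered by median FPKM (left, log axis, with 0.01 added), with the percent of members that had an H3K4me1 summit 500 to 2500 bp from the start site (middle) and the mean number of summits within 100 kb per member (right). Circles and triangles are the 2 ZR751shLucif replicates, dotted lines the means over all genes, and luminal transcription factors stand highest on the right, at 11.5 and 11.2, while ribosomal protein genes, the most highly expressed list, stand at 2.05 and 2.50.

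Among genes of other lineages, lists differed in peak number. Markers of other cell types were not poor in peaks despite their low FPKM, with means within 100 kb of 8.00 and 6.67 summits for the 3 endothelial markers, 7.17 and 4.17 for the 6 basal ones, 5.00 and 4.17 for the 6 immune ones and 2.83 and 3.17 for the 6 fibroblast ones, beside 3.58 over all genes. VWF, the endothelial von Willebrand factor, had 20 and 11 summits, and PTPRC, a leukocyte phosphatase, had 19 and 14, both singled out after their values were seen. Of 107 developmental transcription factors of other lineages, 52 were listed at 0 and 32 lay in Q1, 1.87% and 2.80% had a flanking summit and the mean count within 100 kb was 2.22 and 2.25. GATA6, a factor of endoderm and heart, stood out with 4.26 and 4.28 FPKM and 16 and 8 summits within 100 kb, and LHX4, a factor of pituitary and motor neuron development, had 0.872 and 1.82 FPKM and 14 and 13. LMX1B, the highest by FPKM at 9.84 and 9.69, had 0 and 4. Tissue-restricted genes of other organs gave 2.56 and 2.62 summits over 71 genes. MB, which encodes myoglobin, was in Q4 with 65.9 and 61.7 FPKM, a summit 1916 and 2144 bp after its start, and 8 and 11 summits within 100 kb. TNNT2, a cardiac troponin, had 1.77 and 0.221 FPKM with 24 summits within 100 kb in each list. TNNT2, LHX4 and PTPRC lie on chromosome 1 and VWF on chromosome 12, which were rich in peaks. Genes listed at 0 had means of 5.30 and 4.55 summits within 100 kb on chromosome 1, and 5.16 and 4.82 on chromosome 12. Olfactory receptor genes were the poorest list, with 340 of 365 genes listed at 0, means of 0.627 and 0.595 summits within 100 kb and no summit in either list within 100 kb of 222 genes. ZNF zinc finger genes were expressed in most cases, with 33 of 505 listed at 0 and a median of 2.01 FPKM. They had means of 1.36 and 1.31 summits within 100 kb, and 284 of them had none in either list. These means take no account of the chromosomes on which the ZNF genes lie. Peak-poor chromosomes such as 19, with means of 0.943 and 1.20 around Q4 genes, were not set apart. ZNF281, a zinc finger repressor in Q3 with 3.46 and 7.60 FPKM, had the most in the list, at 30 and 24. It also lies on chromosome 1 and had 4 and 3 summits in its flank. A flanking summit in both lists was found for 11 of the 505 ZNF genes, 2 of 107 developmental factors and 0 of 365 olfactory receptors. It was found for 2 of 26 luminal factors and 3 of 40 proteasome and spliceosome genes, and for 1 of 78 ribosomal genes. The other lists gave 3 of 25 estrogen-induced, 1 of 26 keratin and junction, 1 of 71 tissue-restricted, 3 of 21 H3K4 methylation and 5 of 62 histone genes. The share was 6.01% over all genes and 12.3% over Q4 genes.

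By summits within 100 kb the leading genes lay in Q4, and by summits in the body they were long genes of Q2 and Q3. MGP, a secreted matrix protein, had 858 and 173 FPKM and the most summits within 100 kb, at 80 and 67, and its neighbour ERP27, an endoplasmic reticulum protein, had 50.7 and 40.8 FPKM with 79 and 66. Both lie on the minus strand of chromosome 12, with start sites at 15038788 and 15091471, so their windows of 100 kb overlap. Chromosome 12 was also rich in peaks as a whole. AGR3, a secreted luminal protein on chromosome 7, had 73.9 and 164 FPKM, 60 and 73 summits within 100 kb and 4 flanking summits in each list. By summits in the body, ERBB4, a receptor tyrosine kinase, led with 96 and 114 in 1163085 bp at 1.18 and 2.41 FPKM, followed by SRGAP1, a GTPase activator, with 90 and 74 at 11.5 and 10.4 FPKM, and RAD51B, a DNA repair gene, with 64 and 79 at 1.81 and 2.95 FPKM. At the other end, 4 protein-coding genes listed at 0 had a summit within 1 kb of the start in both lists, of 2877. DSPP, a dentin matrix protein, had summits 772 and 780 bp before its start, B3GALT2, a galactosyltransferase, had them 415 and 420 bp after, and SPIC, a macrophage ETS factor, 438 and 526 bp after. The other gene was TMPRSS11F, a transmembrane serine protease, named because the count is small. For DSPP the 101 bases of GRCh37 at the start site (chr4:88529631-88529731, plus strand) and at the summit of replicate 1 before it (chr4:88528859-88528959) are shown beside the expressed genes above, and each window holds 1 CpG.
DSPP upstream summit: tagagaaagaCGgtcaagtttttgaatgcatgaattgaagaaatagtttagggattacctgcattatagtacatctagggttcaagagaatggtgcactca
DSPP start site: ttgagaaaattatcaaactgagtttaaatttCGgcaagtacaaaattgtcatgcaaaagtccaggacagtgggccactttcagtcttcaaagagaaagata

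The shape around the start site was then compared with the other peak lists, with genes in the same bins, set by FPKM in ZR751shLucif. In the 2 H3K4me1 lists of ZR751shMLL3 cells, the shares of Q4 genes with a flanking summit were 18.9% and 20.2%, against 23.4% and 22.9% in ZR751shLucif. Within 1 kb, the difference between Q4 and genes listed at 0 was 1.00 and 2.15 percentage points in ZR751shMLL3 and 4.31 and 4.34 in ZR751shLucif, a difference of -2.75 between the cell lines. The groups did not overlap, and the exact two-sided permutation test of 2 against 2 lists gave p = 0.33, the smallest it allows. Body densities overlapped, with a Q4 excess of 3.02 and 2.76 in ZR751shMLL3 and 2.87 and 3.00 in ZR751shLucif (exact permutation p = 1). All lists were cut to 50000 peaks, so a loss of H3K4me1 over the whole genome cannot show in these counts. The paper reports such a loss in ZR751shMLL3, with far fewer sites and less H3K4me1 at most sites common to both lines. The values here compare only where the top-ranked peaks lay. The lowest of the 50000 peaks had a −log10 FDR of 1.60 and 2.76 in ZR751shMLL3 and 3.47 and 3.97 in ZR751shLucif, and replicate lists shared 31.0% and 35.6% of peaks in the former against 50.6% and 51.1% in the latter. Whether these differences account for the lower gradient was not tested.

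The transcription factor lists of the same control cells had other shapes. SP1, a factor that binds GC boxes, had summits within 500 bp of the start in 7.76% and 9.51% of Q4 genes and 1.14% and 1.53% of genes listed at 0. An excess in Q4 of 6.62 and 7.98 percentage points compares with 0.194 and 0.199 for H3K4me1 (exact permutation p = 0.33, the smallest possible). The highest value was 5.13 and 6.36 summits per 100 genes in the 250 bp before the start, where H3K4me1 had few summits. In the flank from 500 to 2500 bp, SP1 rose only from 5.30% and 5.40% of genes listed at 0 to 6.60% and 7.48% of Q4 genes. ERα summits were found in the flank of 5.83% and 3.93% of genes listed at 0 and 8.49% and 8.04% of Q4 genes. Within 100 kb, the excess of Q4 over genes listed at 0 was 0.141 and 0.577 summits for ERα and 0.309 and 0.185 for SP1. For H3K4me1 it was 2.70 and 2.82, with no overlap between its lists and those of either factor and the same smallest p. Genes listed at 0 already had means of 2.93 and 2.48 ERα and 2.85 and 3.00 SP1 summits in this window. Each factor list was cut to as many top-ranked peaks as the H3K4me1 lists. The paper's reproducibility analysis passed far fewer peaks for ERα and SP1 in these cells than for H3K4me1. Whether weak peaks in the factor lists account for their small excess was not tested.

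**Figure D5:**
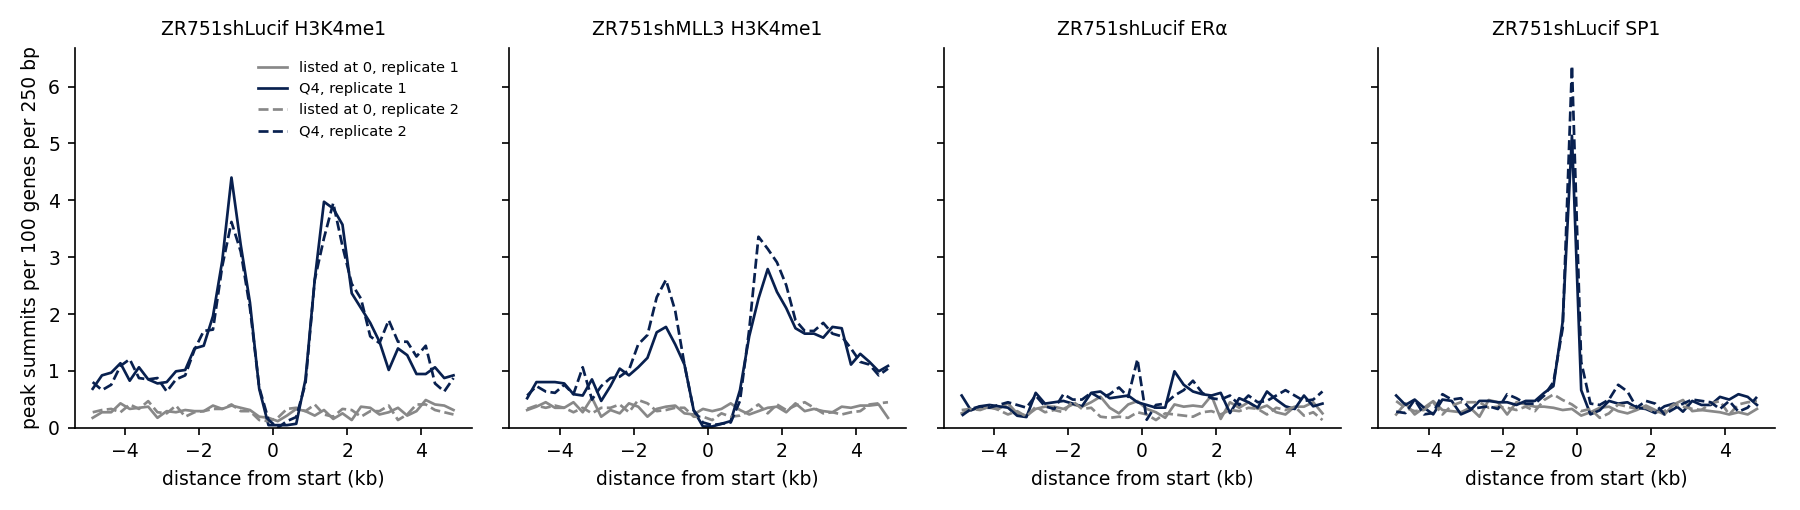
Peak summits per 100 genes in steps of 250 bp (vertical axis) against distance from the start site in kb (horizontal axis) for Q4 genes (dark) and genes listed at 0 (grey), with solid and dashed lines for replicates 1 and 2. H3K4me1 of both cell lines shows shoulders and a trough, SP1 of ZR751shLucif a single peak just before the start of Q4 genes that reaches 5.13 and 6.36, and ERα of ZR751shLucif stays at or below 0.994 and 1.21 throughout.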

How the data were processed

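RNA-seq values are FPKM per gene, made by the authors on hg19 with TopHat2 2.0.13, Cufflinks 2.2.1 and Cuffnorm 2.2.1 and deposited for 23500 entries. For ChIP-seq, the authors aligned reads with BWA 0.7.5a-r405, removed duplicates with Picard 1.126 and called peaks with SPP in each library against 1 input per cell line. The deposited lists give a signal value and the −log10 of an FDR for each peak, and hold 299979 and 299988 H3K4me1 peaks in ZR751shLucif, of which the 50000 with the highest signal were used. The study states an approximate sequencing depth for both assays, but FPKM and peak signal carry no read counts, so no counting error per gene or peak could be given.

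Symbols were found for 22894 entries and positions in GENCODE 44 on GRCh37 for 22221. The entry with the higher mean was kept where a gene had several, which left 22017 genes. Start site and body came from the canonical transcript, or from the whole gene for the 1468 genes without one. Bins, windows, gene lists and the rule for named genes were chosen with earlier results of these data known. The rule took from each list the 2 genes with the highest mean FPKM and the 2 with the most summits within 100 kb, and over all genes 3 at each of 4 extremes (most summits nearby or in the body, highest FPKM without summits, strongest start peaks at FPKM 0). Counting used Python 3.11.15, pandas 2.3.3, NumPy 2.4.6 and SciPy 1.17.1, was tested on simulated data, and figures used matplotlib 3.10.9. Lists were compared by exact permutation tests, with no p across genes. The alternatives were other numbers of peaks, windows, gene sets and libraries.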

Additional observations from a re-analysis of the deposited data

How the results depend on the processing

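The 79 alternatives kept the direction of all 5 differences reported (start sites, flank, bodies, within 100 kb, and the gradient between the cell lines), while the sizes followed the number of peaks and the window. With 20000 top peaks, 100000 top peaks and all peaks at an FDR of 0.01 or less, the difference between Q4 and genes listed at 0 was 2.06, 7.99 and 12.7 percentage points within 1 kb, 1.28, 5.64 and 9.03 summits per 100 kb of body, 1.29, 5.09 and 8.04 summits within 100 kb, and 9.60, 33.9 and 46.2 percentage points in the flank. Only peaks found in both lists gave 2.88, 1.62, 1.64 and 10.5. At start sites, a window of 500 bp gave 0.196 percentage points, a window of 2 kb 16.9, any annotated transcript start 15.7 and any overlap of the peak region 11.2. Windows of 50 and 250 kb gave 1.71 and 4.95 summits. Leaving out 1 library at a time gave 3.99 to 4.35, 2.66 to 3.00, 2.55 to 2.84 and 19.5 to 20.3 for start sites, bodies, 100 kb and flank. Differences within chromosomes and within CpG-rich starts, and the flank itself, were added after seeing the data. With the replicate block, which pairs an RNA-seq library and a peak list by number although no label ties them, the values were 4.30, 2.81, 2.70 and 20.0. For the gradient between the cell lines, 20000 peaks gave -1.38, 100000 peaks -4.99, any overlap -5.74, leaving out 1 list -3.32 to -2.17 and the replicate block -2.75 (exact permutation p = 0.5). With 2 lists per group no test here can reach 0.05.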
